A study of Mus musculus with 5 samples.

Results

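The variable (V) genes of the immunoglobulin light chains were followed in mice that carried a leukaemia and were given either PBS or a STAT3-binding decoy oligonucleotide. A light chain V gene was taken into the set when its symbol began with Igkv (kappa) or Iglv (lambda) and when it had at least 10 UMIs summed over all barcodes of the 5 libraries. A UMI, or unique molecular identifier, stands for 1 captured messenger RNA molecule. Of 163 such genes in the feature list, which holds 32285 genes, 85 passed, 82 of them kappa and 3 lambda. The other 78 stayed below 10 UMIs, 46 of them at 0, and 56 of the 78 were annotated pseudogenes, against 4 of the 85 members. Just inside the limit were Igkv3-3 with 12 UMIs, Igkv4-62 with 11 and Igkv2-112 with 10. Just outside were Igkv4-63 with 9 and Igkv4-77, Igkv4-71 and Igkv12-38 with 7 each. The members were thus chosen on their total counts, so that total abundance is a description here and not a finding.

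All mice were C57BL/6 and had received CMM cells intravenously, an inv(16) acute myeloid leukaemia line of mouse marked with GFP, the green fluorescent protein. Injections into a vein were given every other day, 3 in all, from the time when about 1% of the blood was GFP+, either of PBS (1 library) or of CpG-STAT3dODN, a STAT3 decoy oligonucleotide joined to a CpG sequence (4 libraries, named Decoy 2, Decoy 3, Decoy 5 and Decoy 6). The sort was for GFP+c-Kit+ leukaemia cells of the spleen, so B cells and plasma cells, the only usual source of light chains, were not its target. The labels do not say that each library came from a separate animal, and the p-values below measure only the spread between libraries. With 1 PBS library, any treatment difference rests on a single control. The libraries held 56490098 to 579333323 UMIs and 1941 to 17219 kept cells each (32240 in all), with a median of 14005 to 36499 UMIs per kept cell. Between 1 and 45 cell barcodes were shared by each pair of libraries, at most 0.695% of the smaller one.

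An antibody light chain is encoded by a V gene that has been joined by recombination to a short J segment upstream of a constant gene, Igkc for kappa or one of the Iglc genes for lambda. A B cell as a rule makes 1 productive light chain, and in the mouse most B cells use kappa. A plasma cell is the antibody-secreting descendant of a B cell and holds far more immunoglobulin messenger RNA. The kappa V genes lie on chromosome 6, here between 22.3 and 3170.2 kb from Igkc and on both strands, whereas the 3 lambda V genes lie on chromosome 16. Because the libraries were made from the 3′ end of the transcript, where the constant gene lies, V genes catch only a small share of the light chain UMIs.

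How far reads can tell the members apart depends on their sequences, here read from the transcripts of GENCODE vM21 (GRCm38, the same build as mm10, which the deposited data use). The ends of the V exons of Iglv1 (chr16:19085017-19085136, minus strand) and Iglv2 (chr16:19260401-19260520, minus strand) are given 5′ to 3′, because lambda use turns on this pair. Capitals mark the bases that differ.
Iglv1: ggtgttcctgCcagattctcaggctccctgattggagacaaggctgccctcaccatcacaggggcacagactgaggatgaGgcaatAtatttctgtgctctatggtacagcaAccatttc
Iglv2: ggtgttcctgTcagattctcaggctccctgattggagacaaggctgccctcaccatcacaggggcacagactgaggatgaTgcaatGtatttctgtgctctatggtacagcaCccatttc
These 120 bases differ at 4 positions, and the whole V exons are 97.0% identical, with 15 of 216 windows of 90 bases found unchanged in another V gene. Iglv3 was far from both: its nearest member shared 52.5% of its V exon.

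Igkv10-96, the kappa gene that led the plasma cells of each Decoy library, has near relatives too. The last 120 bases of the V exon are shown for Igkv10-96 (chr6:68631963-68632082, minus strand), Igkv10-94 (chr6:68704508-68704627, minus strand) and Igkv10-95 (chr6:68680729-68680848, plus strand). Capitals in Igkv10-96 mark bases at which the 3 genes are not all alike. In Igkv10-94 and Igkv10-95 they mark bases that differ from Igkv10-96.
Igkv10-96: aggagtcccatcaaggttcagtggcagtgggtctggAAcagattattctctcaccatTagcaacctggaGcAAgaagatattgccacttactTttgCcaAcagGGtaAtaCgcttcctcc
Igkv10-94: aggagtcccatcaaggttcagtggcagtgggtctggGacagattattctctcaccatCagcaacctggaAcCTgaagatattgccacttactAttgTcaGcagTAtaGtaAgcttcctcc
Igkv10-95: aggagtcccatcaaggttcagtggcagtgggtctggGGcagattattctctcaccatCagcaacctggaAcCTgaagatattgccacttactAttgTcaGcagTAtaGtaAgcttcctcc
Igkv10-94 differs from Igkv10-96 at 12 of these bases and Igkv10-95 at 13, and none of the 209 windows of 90 bases in the Igkv10-96 exon occurred in another V gene. Some other leading genes were harder to separate. Igkv5-43 shared 104 of its 209 windows with another V gene, Igkv17-121 and Igkv17-127 54 of 209 each, and Igkv1-117 and Igkv1-110 53 of 224 each, so values of single genes in these groups are uncertain.

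The last 60 bases of the V exon show what the 8 kappa genes that led the plasma cells contribute to complementarity-determining region 3 (CDR3), the loop that starts just after a conserved cysteine and carries much of the antigen contact. Capitals run from the codon of that last cysteine to the end of the V exon, and all lie on chromosome 6.
Igkv10-96: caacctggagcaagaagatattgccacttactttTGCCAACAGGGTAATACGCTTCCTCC
Igkv14-111: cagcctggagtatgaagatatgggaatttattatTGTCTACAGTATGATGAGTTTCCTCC
Igkv1-117: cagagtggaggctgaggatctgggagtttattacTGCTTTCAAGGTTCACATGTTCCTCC
Igkv1-135: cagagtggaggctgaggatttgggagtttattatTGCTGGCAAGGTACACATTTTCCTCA
Igkv1-110: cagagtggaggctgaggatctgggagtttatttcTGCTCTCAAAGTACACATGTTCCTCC
Igkv17-121: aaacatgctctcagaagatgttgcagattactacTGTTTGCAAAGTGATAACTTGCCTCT
Igkv4-55: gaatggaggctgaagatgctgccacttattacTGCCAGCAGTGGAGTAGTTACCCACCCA
Igkv17-127: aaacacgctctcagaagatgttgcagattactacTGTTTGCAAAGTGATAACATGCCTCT
All 8 end in a different germline stretch, although Igkv17-121 and Igkv17-127 are 98.0% identical over the whole exon and Igkv1-117 and Igkv1-110 96.8%.

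Plasma cells were taken as kept barcodes with at least 5 UMIs of Jchain, the joining chain of secreted IgM and IgA. There were 8 in the PBS library (0.0465% of kept cells), 38 in Decoy 2 (0.608%), 141 in Decoy 3 (7.26%), 265 in Decoy 5 (7.35%) and 106 in Decoy 6 (3.29%). The threshold fell in a thin part of the distribution, with 47 cells at 3 to 4 Jchain UMIs, 17 at 5 to 7 and 521 of the 558 at 20 or more. Of the 558, 381 lay in the plasma cell-like cluster, where 79.8% of cells had a UMI of Sdc1, the plasma cell surface protein syndecan-1, and 60.4% one of Prdm1, the factor that drives plasma cell differentiation. Another 114 lay in the macrophage-like clusters, and 63 in other clusters. Plasma cells outside the plasma cell-like cluster had a median of 54905 UMIs against 27548 inside it, and carried 745 CPM of C1qa and 266 CPM of Csf1r, macrophage genes that stood at 31.5 and 7.54 CPM inside it. CPM scales the UMIs of a gene to the total UMIs of the cells summed. Whether droplets with a macrophage and a plasma cell together account for these barcodes was not tested. Lambda shares, Igkv10-96 use, same-gene probabilities, recurring pairs and heavy chain classes are therefore given within the plasma cell-like cluster as well. Predicted doublets, taken as the highest scores up to the expected rate of each library, held 5 of the 8 PBS plasma cells and 2 of 38, 4 of 141, 32 of 265 and 7 of 106 in the Decoy libraries, and they were kept unless stated.

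B cells were the B cell-like cluster, in which all 10 markers of the B cell list were found, without cells of 5 or more Jchain UMIs. They numbered 193 in PBS (1.12%), 137 in Decoy 2 (2.19%), 370 in Decoy 3 (19.1%), 1180 in Decoy 5 (32.7%) and 454 in Decoy 6 (14.1%). A further, deep B cell-like cluster of 78 cells was held apart after it had been seen. It had a median of 39992 UMIs against 7110, and it carried 872 CPM of Xist and 680 CPM of Fcer1a, genes that were at 5.36 and 4.31 CPM in the B cells and at 1180 and 1892 CPM in a mast cell and basophil-like group. Of its cells 53 came from PBS, 10 from Decoy 2, 1 from Decoy 3 and 14 from Decoy 6.

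Light chain V transcripts were almost confined to plasma cells. Of the 96994 UMIs of the 85 members, 97.0% lay in the 558 plasma cells and 1.51% in the 2334 B cells. Kappa V genes together reached 1102 ± 128 CPM (SD, n = 4 Decoy libraries) in plasma cells and 43.4 ± 5.41 in B cells, while PBS had 855 CPM in plasma cells and 64.2 CPM in B cells. Nearly every plasma cell, 94.6%, had an Igkv UMI. Among B cells the share was 23.8% in PBS, 27.0% in Decoy 2, 31.1% in Decoy 3, 29.1% in Decoy 5 and 30.2% in Decoy 6. T cell-like and neutrophil-like cells, which make no light chain, had one in 3.06%, at a median depth of 11335 UMIs per cell against 7085 in B cells. Those cells carried other B cell genes too, with a UMI of Cd79a, a part of the B cell receptor, in 7.06% of them. Whether free RNA or droplets shared with a B cell gave these UMIs was not tested. In most B cells no kappa V gene was seen.

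One gene outweighed all the others. Iglv1, the V gene of most mouse lambda chains, held 68951 UMIs, 71.1% of those of all members, while the 82 kappa members together held 25476, with a median of 140.5 per gene. The Iglv1 UMIs were 1669 in PBS, 5791 in Decoy 2, 15462 in Decoy 3, 33861 in Decoy 5 and 12168 in Decoy 6. Igkv10-96 followed with 3144 UMIs and Iglv3 with 2369. UMIs are not divided by length, but the V exons compared were of like size, 298 to 324 bases. In plasma cells Iglv1 stood at 4670 CPM in PBS, 3616 in Decoy 2, 2591 in Decoy 3, 3127 in Decoy 5 and 2933 in Decoy 6. In B cells it was at 6.21, 16.1, 20.5, 13.2 and 15.2 CPM in the same order, lower in PBS than in every Decoy library. Iglv3 went the other way in B cells, at 10.3 CPM in PBS and 2.92, 3.62, 4.83 and 6.42 CPM in the Decoy libraries.

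Iglv1 was abundant in plasma cells whose constant genes were kappa. A cell was typed lambda when its UMIs of Iglc1 to Iglc4 outnumbered those of Igkc, with at least 5 constant UMIs in all, and kappa otherwise. Of 558 plasma cells 530 were kappa and 28 lambda. Iglv1 had a median of 101, 58.5, 78 and 78 UMIs in the kappa plasma cells of Decoy 2, Decoy 3, Decoy 5 and Decoy 6, and of 293 in the 7 kappa plasma cells of PBS. In the lambda plasma cells the medians were 250.5 (2 cells), 70 (7 cells), 105 (13 cells) and 63 (5 cells) in the Decoy libraries and 6 in the single PBS cell. The kappa and lambda medians overlapped, and neither kind of cell was consistently higher. Kappa V genes did separate the 2 kinds, with medians of 40, 31.5, 40.5 and 36 Igkv UMIs in kappa plasma cells and 1, 2, 0 and 0 in lambda plasma cells.

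The same held within the plasma cell-like cluster. Of its 358 kappa plasma cells only 10 lacked Iglv1, 87.2% had at least 10 UMIs of it, the median was 85 and the highest value 973. Over all Decoy kappa plasma cells, Iglv1 exceeded the sum of all Igkv genes in 364 of 523 (69.6%). The share was 61.1% in Decoy 2, 66.4% in Decoy 3, 70.6% in Decoy 5 and 74.3% in Decoy 6. Kappa V genes gave 5.72 to 7.25 UMIs per 1000 Igkc UMIs in the kappa plasma cells of the Decoy libraries and 6.11 to 7.17 in their kappa B cells, so that the kappa ratio was alike in both classes. Iglv1 gave 14.95 to 18.7 per 1000 Igkc UMIs in kappa plasma cells and 1.28 to 1.54 in kappa B cells. The plot of Iglv1 against kappa V counts shows both kinds of plasma cell.

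**Figure D1:**
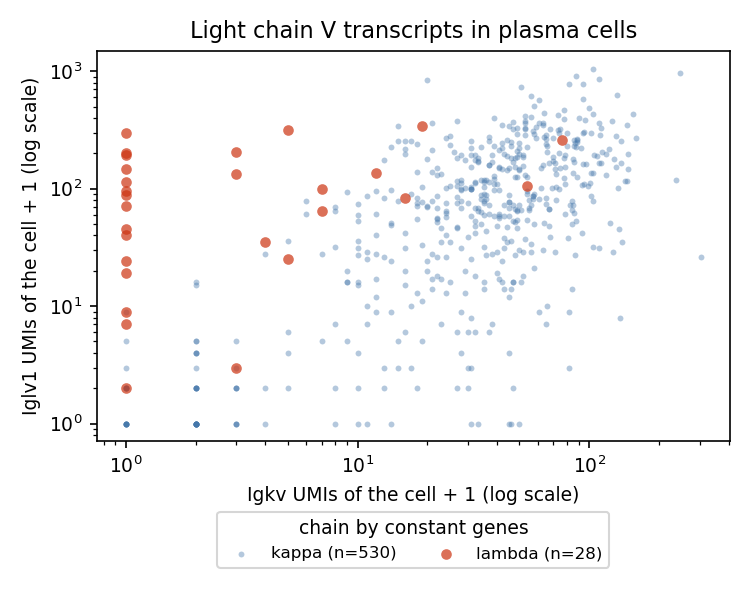
Iglv1 UMIs (vertical axis, plus 1, log scale) against the summed UMIs of all kappa V genes (horizontal axis, plus 1, log scale) in each of the 558 plasma cells of the 5 libraries, coloured by the chain given by the constant genes. Lambda cells (28, red) lie mostly at the left, with few Igkv UMIs, but with up to 342 UMIs of Iglv1, within the range of the kappa cells (530, blue), most of which have many UMIs of both.

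In B cells, the V counts followed the constant genes. In Decoy B cells typed lambda, Iglv1 had a mean of 0.477 UMIs and was present in 28.2% of cells, against 0.106 and 9.28% in those typed kappa. Kappa V genes were present in 14.0% of the lambda-typed and 32.2% of the kappa-typed B cells.

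Across the 358 kappa cells of the plasma cell-like cluster, Iglv1 counts moved with those of Igkc (Spearman's rho 0.55), of Iglv3 (0.60) and of all kappa V genes (0.49), and hardly with Iglc1 (-0.02) or with total UMIs (0.14). These are descriptions over cells that share libraries and depth. The kappa V total moved more closely with Igkc, at 0.77. Among 4529 genes found in at least 30% of these cells and scaled to each cell's total, those most like Iglv1 were Iglv3 (0.57), B2m (0.55), which encodes beta-2 microglobulin, Pafah1b3 (0.53), Pon3 (0.51), Ssr4 (0.47), a part of the translocon-associated complex of the endoplasmic reticulum, and Igkc (0.47). Median Iglv1 was 63 UMIs in the 105 of these cells that made mostly Ighm, the IgM heavy chain, 120.5 in the 134 with Ighg2c, 74 in the 58 with Ighg2b, 97.5 in the 32 with Ighg1, 81 in the 18 with Igha and 146 in the 11 with Ighg3. Median Igkc was 6993, 6528, 7973.5, 7932, 6925 and 8142 UMIs in the same order. Cells with a UMI of the division genes Mki67 or Top2a had less Iglv1 relative to all their UMIs than cells without, at 3225 against 6933 CPM in Decoy 2, 3685 against 8577 in Decoy 3, 4011 against 5660 in Decoy 5 and 3745 against 5395 in Decoy 6. Igkc was lower in the dividing cells as well, for example 157914 against 375935 CPM in Decoy 2, and their median depth was higher in all 4 libraries, so Iglv1 did not stand alone in this.

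The lambda plasma cells divided by constant gene. Iglc1 led in 13 of the 28, Iglc2 in 8 and Iglc3 in 7, and Iglc4 in none. As textbook background, mouse Iglv1 joins to the Iglc1 and Iglc3 segments, and Iglv2 and Iglv3 mostly to Iglc2. Median Iglv1 was 113 UMIs in the Iglc1 cells, 36.5 in the Iglc2 cells and 82 in the Iglc3 cells, with wide overlap (6 to 342, 1 to 298 and 8 to 203). At least 10 UMIs of Iglv2 or Iglv3 were found in 6 of the 8 Iglc2 cells, 4 of the 13 Iglc1 cells and 2 of the 7 Iglc3 cells. One Iglc2 cell of Decoy 5 held 5584 Iglc2, 21 Iglv2 and 1 Iglv1 UMIs, and an Iglc2 cell of Decoy 2 held 6897 Iglc2, 298 Iglv1 and 67 Iglv3 UMIs. Such cells make plain that Iglv1 counts alone named neither the chain nor the constant gene of a plasma cell. Iglv2 was rare, at 8.74 ± 5.86 CPM in Decoy plasma cells and 0 UMIs in the PBS plasma cells.

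By constant genes, lambda cells were a small part of the plasma cells. They were 2 of 38 in Decoy 2 (5.26%), 7 of 141 in Decoy 3 (4.96%), 13 of 265 in Decoy 5 (4.91%) and 5 of 106 in Decoy 6 (4.72%), a mean of 4.96 ± 0.227% (SD, n = 4). Counting error was far wider than that SD, with 95% exact intervals of 0.644 to 17.7% in Decoy 2 and 2.64 to 8.24% in Decoy 5. The likeness of the 4 shares therefore does not show a steady share. In the PBS library 1 of 8 was lambda (12.5%, 95% exact Clopper-Pearson interval 0.316 to 52.7%, which covers counting error only), and that cell lay in the B cell-like cluster. A larger share of B cells was typed lambda, with 34 of 136 typed cells in Decoy 2 (25%), 57 of 370 in Decoy 3 (15.4%), 154 of 1180 in Decoy 5 (13.1%), 63 of 454 in Decoy 6 (13.9%) and 20 of 193 in PBS (10.4%). Most B cells held both kinds of constant UMIs, so the majority rule cut through mixed cells there. Cells with 90 to 100% Iglc made up 7.35, 4.59, 3.39 and 4.41% of B cells in Decoy 2, Decoy 3, Decoy 5 and Decoy 6. Among plasma cells they made up 5.26, 2.84, 3.77 and 2.83% in the same order. By the majority rule, every Decoy library had a lower lambda share in plasma cells than in B cells, and the shares of the 2 classes did not overlap. The mean difference was -11.9 percentage points, with a two-sided exact permutation p of 0.125, the smallest that 4 libraries allow. Within the plasma cell-like cluster the Decoy mean was 6.34 ± 1.17%. The share of B cells was on average 6.47 percentage points higher in Decoy than in PBS, with p = 0.4 by exact permutation over the 5 libraries, where 0.2 is the smallest p possible. The plot of lambda shares by library gives the intervals.

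**Figure D2:**
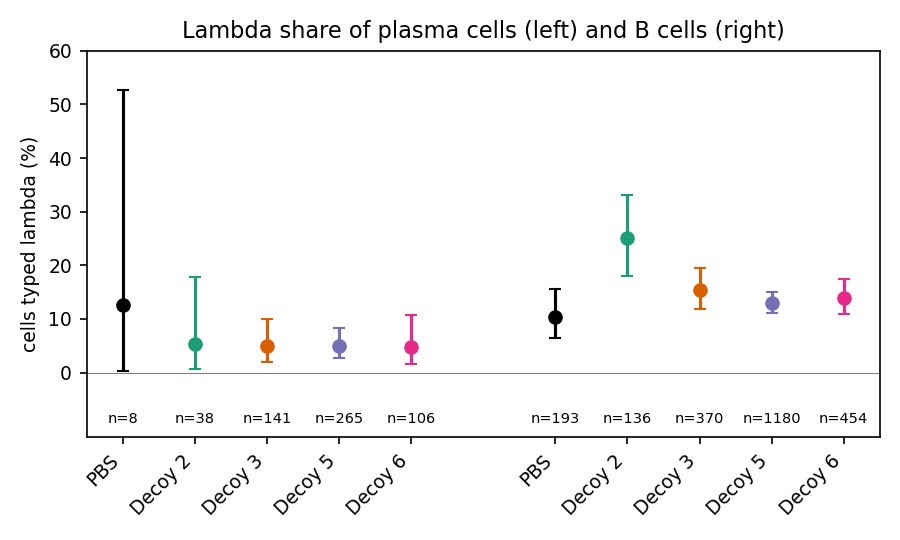
Share of cells typed lambda (vertical axis, percent) in plasma cells (left) and B cells (right) of each library, with 95% exact binomial intervals for counting error and the number of typed cells below. The 4 Decoy libraries lie between 4.72 and 5.26% in plasma cells and between 13.1 and 25% in B cells.

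In B cells the typing was far less sharp. In 79.7% of the typed Decoy B cells the Iglc genes made up between 20 and 80% of the constant UMIs, against 4.36% of Decoy plasma cells, and the median Iglc share was 32.1% in B cells and 1.49% in plasma cells. In PBS 56.0% of B cells were mixed in this way. A B cell had a median of 47 to 89 constant UMIs per library, and a plasma cell 4345 to 8518. T cell-like and neutrophil-like cells held 342 CPM of Igkc and 139.8 CPM of Iglc, against 6426 and 3544 CPM in B cells, and how far free RNA or mapping between the constant genes set the mixed B cells was not tested. When only cells with at least 80% of one kind were typed, the mean lambda share of the Decoy libraries was 4.05% in plasma cells and 27.2% in B cells, a difference of -23.2 points (exact permutation p = 0.125). That rule leaves out the mixed cells, most of the B cells, so the B cell share has a much smaller base. Of all 2140 typed Decoy B cells, 5.23% were over 80% Iglc and 15.1% under 20%. Of the 550 Decoy plasma cells, 3.64% were over 80% Iglc and 92% under 20%. The B cell share was then 18.98 points above the 8.24% of PBS (exact permutation p = 0.2). Here too the base differed. Of all typed B cells, those over 80% Iglc were 3.63% in PBS and 5.23% in Decoy, and those under 20% were 40.4 and 15.1%. The plot of Iglc shares within cells shows the 2 shapes.

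**Figure D3:**
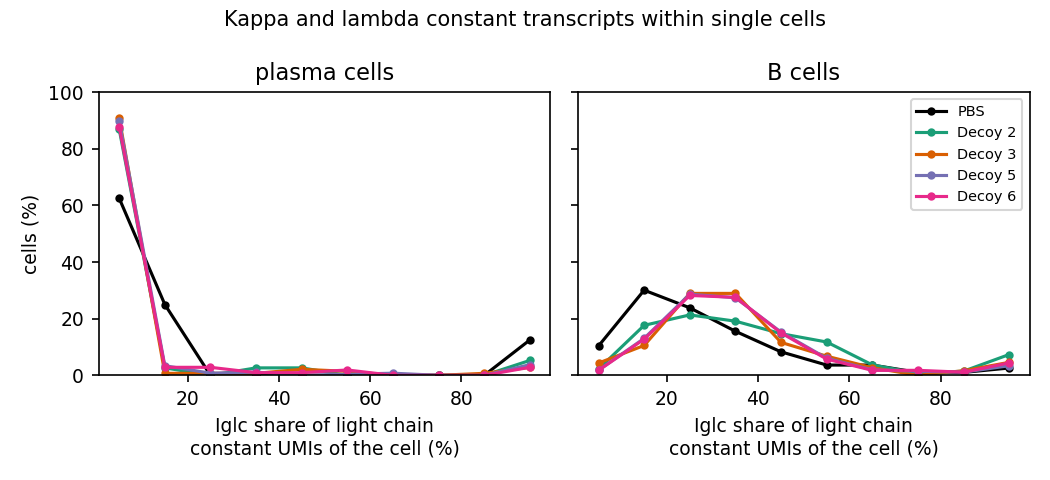
Share of cells (vertical axis, percent) by the Iglc share of the light chain constant UMIs of the cell (horizontal axis, bins of 10 percentage points) for plasma cells (left) and B cells (right), 1 line per library. Plasma cells pile up at the 2 ends, whereas most B cells lie in between, with a median Iglc share of 32.1% in Decoy and 22.5% in PBS. The bin from 90 to 100% Iglc holds 3.39 to 7.35% of the B cells and 2.83 to 5.26% of the plasma cells of the Decoy libraries.

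Kappa V use was read from kappa-typed cells in which 1 Igkv gene held at least 80% of the Igkv UMIs, with at least 3 UMIs in plasma cells and at least 1 in B cells. This left 5, 27, 76, 186 and 66 plasma cells and 38, 28, 94, 297 and 112 B cells in PBS, Decoy 2, Decoy 3, Decoy 5 and Decoy 6. Igkv10-96 ranked first in the plasma cells of every Decoy library, with 8 of 27 cells in Decoy 2 (29.6%), 11 of 76 in Decoy 3 (14.5%), 14 of 186 in Decoy 5 (7.53%) and 7 of 66 in Decoy 6 (10.6%), and it was 1 of the 5 genes seen once each in PBS. The mean was 15.6 ± 9.80% (SD, n = 4), and 10.9% without Decoy 2. Within the plasma cell-like cluster it was 29.6, 9.43, 7.63 and 9.62%, so Decoy 2 stood apart and the other 3 were close together. At 1 UMI or more, Decoy 3 rose to 24 of 94 cells, but with a median of 2 UMIs and with 9 of the 24 in macrophage-like clusters, and Igkv1-110 then led Decoy 6 with 8 of 73.

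Next among plasma cells were Igkv14-111 with 5.24 ± 1.57%, Igkv1-117 with 4.39 ± 2.49%, Igkv1-135 with 3.89 ± 2.55%, Igkv1-110 with 3.74 ± 3.83%, Igkv17-121 with 3.23 ± 1.15%, Igkv4-55 with 2.91 ± 3.19% and Igkv17-127 with 2.82 ± 3.35%. From Igkv14-111 downward the spread between libraries covered the difference between neighbours, and their order is not established. Igkv14-111 was present in every Decoy library, between 3.76% in Decoy 5 and 7.41% in Decoy 2, where it too rests on 2 of 27 cells. Igkv1-110 ran from 0 of 27 cells in Decoy 2 to 6 of 66 in Decoy 6 (9.09%), and Igkv4-55 from 0 of 66 in Decoy 6 to 2 of 27 in Decoy 2 (7.41%), so their means rest on a few cells.

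In B cells Igkv10-96 came first too, at 7.78 ± 2.68% of assigned kappa B cells over the Decoy libraries, followed by Igkv1-135 (7.10 ± 7.62%), Igkv1-117 (6.77 ± 2.82%), Igkv12-46 (5.14 ± 4.62%), Igkv12-44 (4.49 ± 1.80%), Igkv6-15 (4.36 ± 1.47%), Igkv5-43 (3.97 ± 1.12%) and Igkv19-93 (3.72 ± 1.17%). The leading gene differed by library, with Igkv1-135 first in Decoy 2 (5 of 28 cells), Igkv12-46 in Decoy 3 (11 of 94), Igkv10-96 in Decoy 5 (21 of 297) and in Decoy 6 (13 of 112), and Igkv1-117 and Igkv12-41 tied in PBS (3 of 38 each). The mean of Igkv1-135 fell to 3.51% without Decoy 2 and that of Igkv12-46 to 2.95% without Decoy 3, and the spread between libraries covered the differences between neighbours, so the order in B cells is not established. Igkv10-96 was more frequent in plasma than in B cells in Decoy 2, Decoy 3 and, narrowly, Decoy 5 (7.53 against 7.07%), and less frequent in Decoy 6 (10.6 against 11.6%). Igkv14-111 was higher in plasma cells in every Decoy library, and its B cell mean was 1.92%. That comparison rests on few counts, with 0, 2, 12 and 5 UMIs of it in the B cells of Decoy 2, Decoy 3, Decoy 5 and Decoy 6. Shares of the same gene in plasma and B cells correlated at a Spearman's rho of 0.68 across the 82 kappa genes, a description over genes that are not independent. Of the 8 leading genes of each class, 3 were shared, namely Igkv10-96, Igkv1-117 and Igkv1-135.

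**Figure D4:**
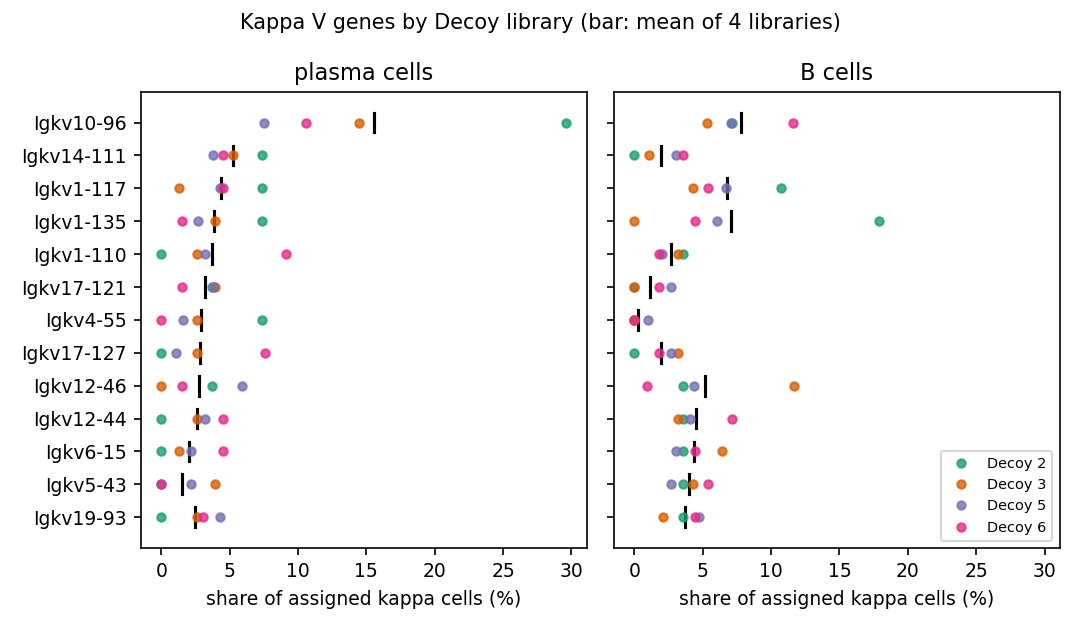
Share of assigned kappa cells (horizontal axes, percent) that used each of 13 kappa V genes, in plasma cells (left) and B cells (right), with 1 point per Decoy library and a bar at the mean of the 4 libraries. Igkv10-96 leads the plasma cells, where Decoy 2 lies far to the right at 29.6%, and most other genes stay below 10%.

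Taken by family, the genes numbered Igkv1 gave 12.96% of the assigned Decoy plasma cells and 14.3% of B cells, and family 10 gave 12.4 and 9.98%. Family 4, the largest with 20 members, gave 11.5% of plasma cells and 6.21% of B cells, whereas family 12 gave 8.73 and 12.8% and family 6 gave 10.1 and 14.1%. These pooled shares weight libraries by their cells and were not tested. Place in the locus went with neither class. The correlation of a gene's share with its distance from Igkc was 0.12 in plasma cells and 0.085 in B cells (Spearman's rho, 82 genes). Genes within 1000 kb of Igkc, 42.7% of the members, gave 40.0% of plasma cells and 45.4% of B cells. Genes on the minus strand, 60.98% of the members, gave 58.0 and 55.7%. At least 1 Decoy plasma cell was assigned to 64 of the 82 genes and at least 1 B cell to 71.

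**Figure D5:**
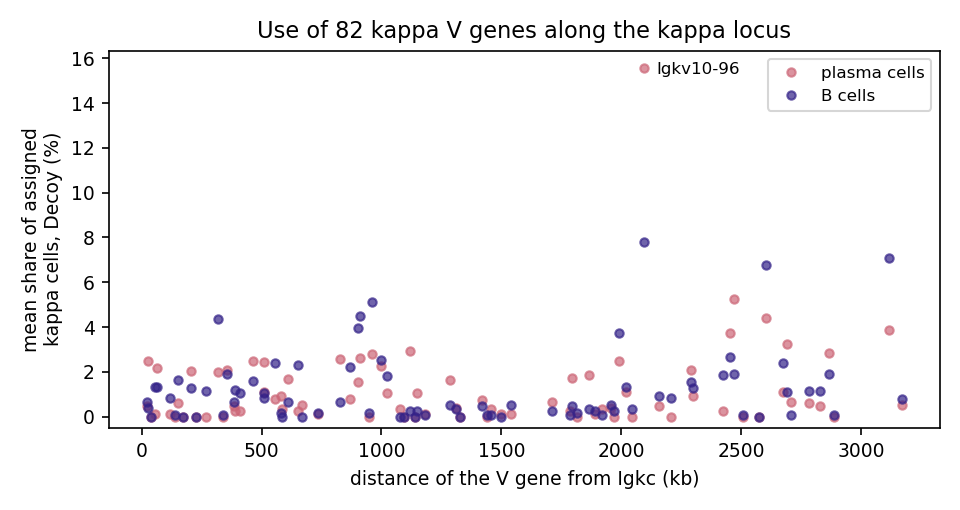
Mean share of assigned kappa cells over the 4 Decoy libraries (vertical axis, percent) against the distance of each of the 82 kappa V genes from Igkc (horizontal axis, kb), for plasma cells and B cells. Used genes lie along the whole locus, from 22.3 to 3170.2 kb, and Igkv10-96 in plasma cells, at 15.6%, stands above the rest.

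How concentrated the kappa repertoire was can be put as the probability that 2 assigned cells of a library share a V gene. In plasma cells it was 0.0912 in Decoy 2, 0.0351 in Decoy 3, 0.0245 in Decoy 5 and 0.0382 in Decoy 6, which equals 11.0, 28.5, 40.8 and 26.2 equally used genes. In B cells it was 0.0370, 0.0286, 0.0287 and 0.0343 in the same order, and 0.0199 in PBS. Decoy 2 was the most concentrated in both classes. With at least 1 UMI asked of both classes, plasma cells exceeded B cells by 0.0245 on average and in 3 of 4 libraries, with an exact permutation p of 0.375. At that limit Decoy 3 had 0.0739, with 24 of its 94 cells assigned to Igkv10-96, most on few UMIs as given above. Within the plasma cell-like cluster plasma cells were the higher in only 1 of 4 libraries, Decoy 2, and the mean difference was 0.010 (exact permutation p = 1). With at least 3 UMIs in plasma cells the values there were 0.0912, 0.0247, 0.0243 and 0.0294. With at least 3 UMIs asked of both classes, which left 3 to 15 B cells per Decoy library, the difference was 0.0189 and the exact permutation p 0.75. Without Decoy 2 it turned to -0.00519, and the difference at 1 UMI was 0.0147, so the direction at 3 UMIs rests on that library. B cells of the Decoy libraries exceeded PBS by 0.0122, in 4 of 4 libraries, at the smallest exact permutation p of 0.2. These tests did not pass 0.05, which neither design could reach.

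When lambda V genes were allowed to compete in the assignment, as the tests were first set up, the outcome was of another kind. The probability in Decoy plasma cells then averaged 0.681 ± 0.187 against 0.0717 ± 0.129 in B cells, a difference of 0.609 (exact permutation p = 0.125, the smallest possible), and in B cells Decoy exceeded PBS by 0.0717 (exact permutation p = 0.8). Iglv1 took 11 of 17, 27 of 30, 71 of 85 and 27 of 30 assigned plasma cells of the 4 Decoy libraries, of which 9, 24, 62 and 24 were typed kappa by their constant genes. Because kappa cells with many Iglv1 UMIs enter this measure as Iglv1 cells, kappa genes were also read alone, a choice made after these counts had been seen. Even among Igkv genes, 22.9, 29.0, 23.5 and 29.0% of kappa plasma cells with at least 3 Igkv UMIs had no gene with 80% of them.

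Both chains could be assigned in 310 plasma cells, 5 in PBS, 24 in Decoy 2, 70 in Decoy 3, 154 in Decoy 5 and 57 in Decoy 6, with the heavy chain V gene (Ighv) read by the same rule. These held 256 combinations of Igkv and Ighv gene. A combination recurred within a library for 2 pairs in Decoy 2, 2 in Decoy 3, 17 in Decoy 5, 5 in Decoy 6 and none in PBS, and such cells were 20.8, 11.4, 24.7 and 19.3% of the Decoy cells with both chains. Within the plasma cell-like cluster the recurring pairs were 2, 1, 9 and 3, with 20.8, 8, 18.75 and 16.3% of the cells. The most repeated was Igkv10-96 with Ighv1-26 in Decoy 3, in 6 cells, 3 with Ighm, 2 with Ighg2b and 1 with Ighg2c as the main heavy chain constant gene. Of these 4 lay in the plasma cell-like and 2 in the macrophage-like clusters. Altogether 17 combinations occurred in more than 1 library, and Igkv10-96 with Ighv3-8 in 3 (3 cells in Decoy 2, 1 in Decoy 5 and 2 in Decoy 6). Pairing of this kind names gene combinations, and without the joined sequence it does not show that cells descended from 1 B cell. Igkv10-96 was joined by many heavy chains. Its 7, 9, 11 and 6 paired cells in Decoy 2, Decoy 3, Decoy 5 and Decoy 6 used 5, 4, 9 and 5 Ighv genes and 4, 3, 5 and 4 isotypes.

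The class of the heavy chain was read beside the V gene. IgM was the main class in 8 of 41 plasma cells with Igkv10-96 (19.5%, 95% exact interval 8.82 to 34.9%), in 8 of 14 with Igkv1-117 (57.1%, 28.9 to 82.3%) and in 98 of all 360 assigned cells (27.2%). Ighg2c was the main class in 16 of the 41 cells with Igkv10-96 (39.0%) and in 141 of the 360 (39.2%), shares that were alike. Among lambda plasma cells 14 of 28 were IgM (50%, 30.6 to 69.4%) and among kappa plasma cells 143 of 528 (27.1%, 23.3 to 31.1%). Within the plasma cell-like cluster IgM was the main class in 6 of 29 cells with Igkv10-96, 7 of 12 with Igkv1-117, 75 of all 268 assigned cells, 12 of 23 lambda cells and 105 of 358 kappa cells. These intervals cover counting error over cells pooled from the libraries, and no test over libraries was made.

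The 3 kappa genes Igkv4-91, Igkv7-33 and Igkv14-126, known from natural antibodies of B-1 cells, which are made without immunisation, were looked up whatever their level. Igkv4-91, known to pair with Ighv12-3 in antibodies to phosphatidylcholine, had 124 UMIs and was assigned to 3 plasma cells, 2 of which carried Ighv12-3, both in Decoy 5 and both IgM. Igkv7-33, known with Ighv7-1 from antibodies to phosphorylcholine, had 83 UMIs and 2 plasma cells, 1 in Decoy 5 and 1 in Decoy 6, and both carried Ighv7-1 and were IgM. Igkv14-126, the partner of Ighv11-2 in other antibodies to phosphatidylcholine, had 188 UMIs and 2 plasma cells, neither with Ighv11-2. All 3 were at 0 UMIs in the plasma cells of PBS, where only 8 such cells were found.

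Decoy and PBS were compared for all genes on counts summed per library, with the quasi-likelihood test of edgeR and Benjamini-Hochberg adjustment over all genes tested. Over all kept cells, no gene of 16006 was called at an adjusted p under 0.05 (0% called), so none of the 80 members tested was either. At an unadjusted p under 0.05 there were 25 members, against 10.2% of all genes. Many members were tested only because of their Decoy counts, so that number supports nothing. The log2 fold change was 6.14 for Iglv1, with an SE of 2.0, and 6.89 for Igkv10-96, with an SE of 1.42, both at an adjusted p of 0.471, and all 4 Decoy libraries had more of each. The number of plasma cells, 8 in PBS and 38 to 265 in the Decoy libraries, moved with these levels, and more cells cannot be told apart from more RNA per cell in such sums. With predicted doublets left out, 3 of the 8 PBS plasma cells and 34 of the 1669 PBS UMIs of Iglv1 stayed, and the log2 changes were 11.4 for Iglv1 and 9.03 for Igkv10-96 (adjusted p = 0.464 for both), so the size of the change depends on whether those barcodes are kept. Without the plasma cells Iglv1 was at 5.28 (adjusted p = 0.487). DESeq2 called 51 of 80 members, all higher in Decoy, where it called 12.6% of all genes. Without Decoy 2, the Decoy library with the fewest plasma cells, edgeR called 24 of 77 members, where it called 15.3% of all genes. The call thus depends on the tool and on that library, and since many members were tested only through their Decoy counts, these shares support nothing about the members.

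Within B cells, where the number of B cells does not set the level, 404 of 10550 genes were called (3.83%). None of the 13 members tested was called by edgeR, nor by DESeq2, which called 3.04% of all genes, and 2 had an unadjusted p under 0.05 by edgeR, where 18.1% of all genes did. Iglv1 counted 6 UMIs in PBS, 22 in Decoy 2, 96 in Decoy 3, 164 in Decoy 5 and 59 in Decoy 6, which gave a log2 change of 1.41 with an SE of 0.50 and an adjusted p of 0.145. Igkv8-19 counted 6 UMIs in PBS, 0 in Decoy 2, 6 in Decoy 3, 12 in Decoy 5 and 1 in Decoy 6, which gave a log2 change of -2.82 with an SE of 1.03 and an adjusted p of 0.160. Iglv3 was at -1.07 with an SE of 0.57 (edgeR adjusted p = 0.352). Of the 13 members tested, 4 were higher and 9 lower in Decoy, with a median log2 change of -0.56 against 0.0357 for all genes. A member could enter the test through the counts of 1 library, PBS included. Igkv8-19, Igkv6-20 and Igkv12-41 had 6.02, 3.01 and 3.01 CPM in PBS, and at most 1.23, 1.32 and 2.24 CPM in a Decoy library. Members lower in Decoy may thus have been tested only through PBS, and this split supports nothing about the members. With the deep B cell-like cluster put back, which was mostly PBS cells, Iglv1 passed at 2.60 (adjusted p = 0.0152), 1 of 8 members tested, while 16.8% of all genes were called, so this call turns on which cells are counted as B cells. The other 72 members had too few UMIs in B cells to be tested. Jchain, with cells of 5 or more of its UMIs left out, still had 0 UMIs in the B cells of PBS. It stood at 5.22, 7.15, 11.5 and 6.08 CPM in those of Decoy 2, Decoy 3, Decoy 5 and Decoy 6. The log2 change was 8.29 with an SE of 2.38. Whether RNA of plasma cells added to the B cell levels of genes such as Iglv1 was not tested.

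Of 30 genes of light chain recombination, the surrogate light chain, light chain transcription and assembly, 27 were tested in B cells, and 1 fell and none rose, against 1.98% of all genes called lower and 1.85% called higher. The median log2 change of the list was 0.18, and that of all genes 0.0357. Vpreb3, which encodes a small protein of the early B cell receptor complex, was at 250 CPM in PBS and at 77.5, 62.1, 61.9 and 91.2 CPM in Decoy 2, Decoy 3, Decoy 5 and Decoy 6. It was lower in all 4 Decoy libraries, by -1.80 on the log2 scale with an SE of 0.20 (adjusted p = 0.000437), and the groups did not overlap. With the deep cluster put back the change was -0.52 (adjusted p = 0.103), below the threshold for a call. The constant genes did not pass, with log2 changes of -0.27 for Igkc, 0.62 for Iglc1, 0.12 for Iglc2 and 0.41 for Iglc3 (adjusted p = 0.382, 0.176, 0.781 and 0.207). Derl3, a factor in the removal of misfolded proteins from the endoplasmic reticulum, was at 1.51 (adjusted p = 0.103). Over all kept cells 27 of the list were tested and none was called, 24 having higher values in Decoy, where B and plasma cells were a larger share of the kept cells.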

How the data were processed

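Each of the 5 libraries was deposited as counts, whole numbers of UMIs per gene and barcode with no normalization. Per the file headers the matrices came from Cell Ranger 5.0.0, while the submitters' processing notes list Cell Ranger 3.1, Seurat 4, DESeq2 and the mm10 build. The annotation is not given in the sources used here. Per the labels' protocols the kit was the 10x 3′ kit v3.1. No deposited barcode had under 500 UMIs.

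Cells entered with 500 or more genes, 1000 or more UMIs and no more than 10% mitochondrial UMIs. Doublets were not removed in the main analysis. The automatic limit of scanpy's scrublet marked at most 0.412% of cells in the Decoy libraries and 6.88% in PBS, and leaving out the highest scores up to the expected rate of each library was an alternative. Clusters (scanpy 1.11.5, 2000 variable genes without immunoglobulin, mitochondrial and ribosomal genes, 30 components, 15 neighbours, Leiden resolution 0.5) were named from marker lists as resembling a cell type. Sums of counts per library went through filterByExpr and TMM scaling into the quasi-likelihood test of edgeR 4.0.16 (R 4.3.3), with DESeq2 1.42.0 as an alternative. On simulated data, the test over all cells recovered 96% of genes changed 4-fold and 100% of those changed 8-fold (15191 genes), and the test over B cells 79 and 100% (10352 genes). False calls numbered 13 and 7. In the real data over all cells, Iglv1 was not called at a log2 change of 6.14 with an SE of 2.0. The simulated rates therefore do not give the power for such genes. Shares were compared by two-sided exact permutation. Gene positions and sequences came from GENCODE vM21 of GRCm38, the mm10 build, matched by identifier for 163 of 163 V genes. UMI counts from genes of near-identical sequence can be split or lost in counting.

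Named genes were the 8 kappa genes with the highest Decoy mean share in plasma cells and in B cells, those ranked first in a library, all lambda genes, 3 natural antibody genes, up to 8 called members and the genes next to the limit of 10 UMIs. The 13 genes in the plot of kappa genes follow this rule. Genes named for likeness to Iglv1, the pairs with heavy chains, Igkv8-19, Vpreb3 and Derl3 were named after their values were seen. Members and lists were chosen with earlier results of these data known.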

Additional observations from a re-analysis of the deposited data

Results flagged for a closer look

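Of 37 values tested for a library far from the other 3 Decoy libraries, 1 stood out. The share of assigned kappa plasma cells with Igkv17-121 was 1.52% in Decoy 6, against 3.70 to 3.95% in the others, a gap of 0.90 of the whole range, which is above Dixon's critical value for 4 samples. It rests on 1 of 66 cells in Decoy 6, Igkv17-121 shares much of its sequence with Igkv17-127, which had 5 of those 66 cells, and chance flags about 1 in 20 such groups.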

How the results depend on the processing

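Under the alternatives, the main comparisons kept direction and call 73 times, moved 3 times and turned 2 times. The values of single genes kept direction and call 62 times and otherwise changed as given here or in the report. Those 62 include the Igkv10-96 share and the Iglv1 median, which have no call and were counted when they moved by less than the SD between libraries. Over all kept cells, Iglv1 and Igkv10-96 were called by DESeq2 (log2 changes 6.13 and 6.90) and by edgeR without Decoy 2 (6.49 and 7.16), but not in the main test. The lambda shares and same-gene probabilities were compared by exact permutation, where no p below 0.125 was possible. Their call could therefore not change, and only their direction was checked. A fall of the same-gene probability difference from 0.609 to 0.0189, over kappa genes alone, is thus among the 73. That count does not show that sizes held. Over all kept cells the number of called members was 0 in the main test (0% of all genes), 51 of 80 with DESeq2 (12.6% of all genes) and 0 to 24 with a Decoy library left out, 24 of 77 without Decoy 2 (15.3% of all genes); leaving out predicted doublets kept 0 calls but moved Iglv1 from 6.14 to 11.4 (log2), as it left 3 of the 8 PBS plasma cells. In B cells it was 0, also with a library left out, and 1 of 8 with the deep cluster (16.8% of all genes). The lambda difference between plasma and B cells ran from -13.1 to -9.25 points with a library left out and turned to 61.1 points (exact permutation p = 0.125) when the chain was read from the assigned V gene, as Iglv1 then decides it. The Decoy excess in B cells ran from 3.75 to 7.73 points. The same-gene probability difference between plasma and B cells ran from 0.543 to 0.675, and was 0.0245 (at least 1 UMI) or 0.0189 (at least 3 UMIs) over kappa genes alone. With a Decoy library also left out these ran from 0.0147 to 0.0342 and from -0.00519 (without Decoy 2) to 0.0347, and within the plasma cell-like cluster they were 0.010 and 0.0140; that of B cells by treatment ran from 0.00733 to 0.0956. Igkv10-96 in B cells turned from -0.71 to 0.90 (log2) with the deep cluster, neither past the threshold. An assignment at 5 or more UMIs gave no value for either result, nor did a limit of 95% for plasma against B cells. No paired analysis was possible because the single PBS library shares no replicate number with the Decoy libraries. The low Igkv counts of B cells, under 1 per cell on average, limit what can be said of their kappa use.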
